A study of Mus musculus with 8 samples.

Results

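The genes described here are 35 mouse genes of the amino acid response and the unfolded protein response. They were chosen as a named list, with earlier results of these data known. Each is represented by the probe set that carries its symbol alone, with the highest mean over all arrays where a gene had several. All 35 were found among the 19938 gene symbols measured, and all were tested; Pdia4 alone had 2 probe sets. They were measured on 8 Affymetrix arrays of total RNA from mouse cells of strain C57BL/6, in 4 groups of 2. In 1 group the cells held an empty vector, in another full-length NUP98-HOXA9, and in the remaining groups a deletion mutant of this fusion, delFG1 or delFG2. The fusion, found in leukaemia, is a protein in which the phenylalanine-glycine (FG) repeat part of the nucleoporin NUP98 is joined to the DNA-binding part of the transcription factor HOXA9, and the study asked which genes depend on the NUP98 part. The sources used here do not give the kind of cell, the way each construct was introduced or what each deletion removes.

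Both responses adjust a cell's proteins to its supplies. When amino acids run short, the kinase GCN2 phosphorylates the translation factor eIF2alpha; when unfolded protein collects in the endoplasmic reticulum (ER), the kinase PERK does the same. Most translation then slows, while that of the transcription factor ATF4 rises, and ATF4 switches on genes that take up and make amino acids. The other ER sensors, IRE1 and ATF6, act through the factor XBP1 and through ATF6 itself, and raise ER chaperones and the machinery that removes misfolded proteins. Much of this control acts on translation, splicing and cleavage, which array intensities do not measure.

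The arrays are numbered 1 and 2 within each group in the labels, and values of a group are given below in that order, as log2(intensity + 1), called the log2 level. Median intensity was 80.7 to 83.2 and the lowest value of any array 18.3 to 18.7. Across genes, r was 0.995 to 0.996 between the arrays of a group, and highest, at 0.999, between full-length array 2 and delFG1 array 2. The labels do not say whether a group's arrays came from separate cultures; p-values therefore measure only the spread between these samples, and that spread may be technical. As no tissue is named, cell type markers were read. Summed intensities were 19490 to 24960 for 5 pan-leukocyte markers and 35910 to 59260 for 12 neutrophil markers. They were 15650 to 24870 for 11 monocyte and macrophage markers and 11550 to 18550 for 7 mast cell and basophil markers. The 7 stem and progenitor markers summed to 29590 to 36060, the 4 B cell markers to 154 to 165 and the 4 T cell markers to 185 to 197. Within the stem and progenitor list, Mpo, Elane, Ctsg and Prtn3 had intensities of 5254 to 9873, whereas Kit had 468 to 766 and Flt3 45 to 94.

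Between the full-length fusion and the empty vector, genes passed in the fit of all 8 arrays with a replicate block but not in the same fit on groups alone. With the block, single enzymes of asparagine, serine, folate and cysteine metabolism (Asns, Psph, Aldh1l2 and Cth) and the transcription factor Xbp1 were higher with the fusion, while both subunits of the cystine transporter, Slc7a11 and Slc3a2, were lower. None of the 8 ER chaperone and degradation genes passed, and their log2 differences ran from -0.10 to 0.21. Differences were tested with limma over all 21789 probe sets that carried 1 symbol, with Benjamini-Hochberg adjustment over all of them and a threshold of 0.05. Arrays that share a number deviated together, so the numbers were taken to pair the arrays across groups, which the labels do not state. Each result is therefore given from the fit on groups alone and from the fit that adds the number as a replicate block. On groups alone, 0 of the 35 genes passed in the full-length against empty vector comparison, against 0.124% of all probe sets; at an unadjusted p under 0.05, 10 of the 35 and 9.54% of all probe sets did. With the block, 7 of the 35 passed, or 20%, against 6.61% of all probe sets. As the genes were chosen with earlier results of these data known, such shares are no test of the list. Xbp1, Psph, Aldh1l2, Asns and Cth were higher, 5 of 35 against 2.18% of all, and Slc7a11 and Slc3a2 lower, 2 of 35 against 4.43% of all. Over all 35 the median log2 difference was 0.10, beside 0.02 over all probe sets, with 25 genes higher, or 71.4%, against 56.6% of all probe sets. With the block but no intensity trend in the variance, 2 passed (Psph and Slc7a11), against 4.99% of all probe sets in that fit. With 1 array left out the count ran from 1 without full-length array 1 or 2, against 1.79% and 1.77%, to 11 without empty vector array 2, against 10.9%.

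**Figure D1:**
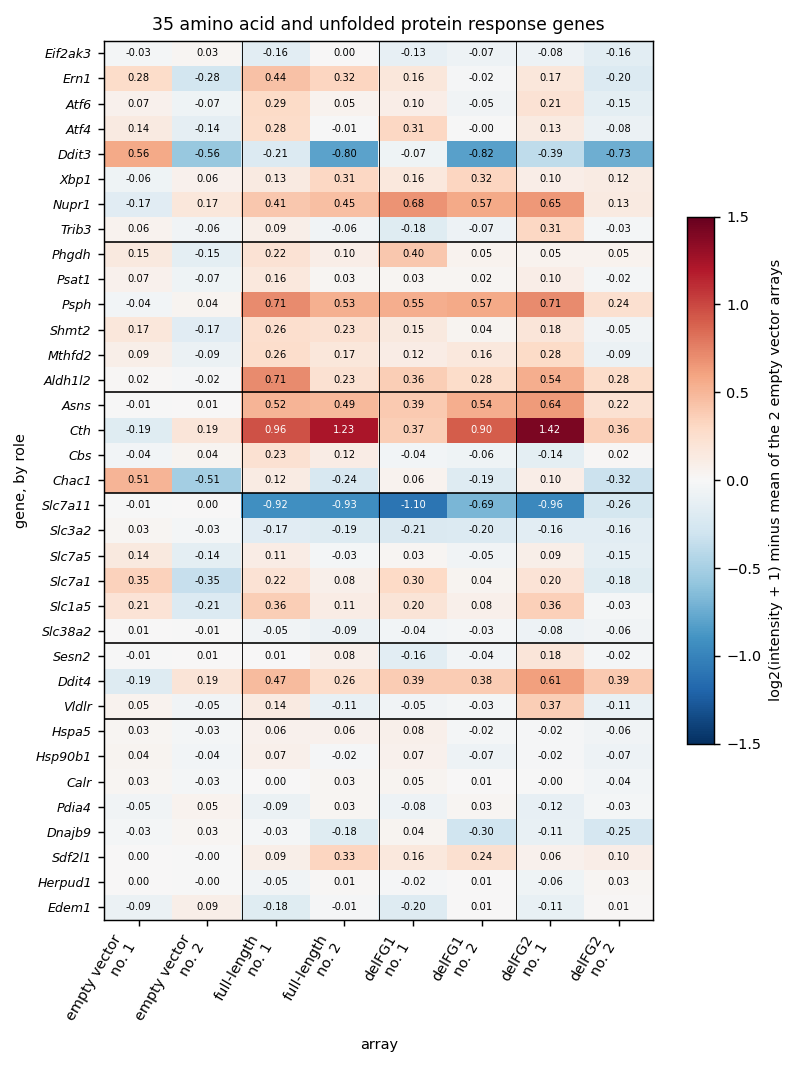
Log2 level of each of the 35 genes on each of the 8 arrays, minus the mean of the 2 empty vector arrays, with genes in rows by role and arrays in columns; numbers in the cells are the plotted differences. Slc7a11 is below its empty vector mean on all 6 arrays with a fusion, while Asns and Psph are above theirs on all 6.

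The start regions of 4 of these genes are shown because their sequences hold the elements through which ATF4 and the ER stress factors are known to act. Each line gives the 150 bases before the annotated start, 5′ to 3′ on the gene's strand, from RefSeq on GRCm38.p6. Capitals mark the C/EBP-ATF response element, TGATGNAA on either strand, in Asns (chr6:7693210-7693359, minus strand), Slc7a11 (chr3:50443614-50443763, minus strand) and Nupr1 (chr7:126625471-126625620, minus strand). In Hspa5 (chr2:34771940-34772089, plus strand) they mark the ER stress response element, CCAAT and CCACG with 9 bases between them.
Asns: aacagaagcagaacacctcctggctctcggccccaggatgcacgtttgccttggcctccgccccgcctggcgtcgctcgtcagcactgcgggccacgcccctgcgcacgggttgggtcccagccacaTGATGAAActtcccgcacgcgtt
Slc7a11: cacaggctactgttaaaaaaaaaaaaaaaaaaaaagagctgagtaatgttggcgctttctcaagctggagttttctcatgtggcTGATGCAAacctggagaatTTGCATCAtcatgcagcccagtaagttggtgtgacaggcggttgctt
Nupr1: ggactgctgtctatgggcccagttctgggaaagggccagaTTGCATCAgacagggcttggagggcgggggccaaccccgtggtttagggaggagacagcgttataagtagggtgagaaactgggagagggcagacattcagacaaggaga
Hspa5: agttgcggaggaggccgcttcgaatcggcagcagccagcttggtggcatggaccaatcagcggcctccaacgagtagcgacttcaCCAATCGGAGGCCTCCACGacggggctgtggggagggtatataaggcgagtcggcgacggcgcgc
The element lies 23 bases before the start of Asns, at 66 and, on the other strand, at 47 bases before the start of Slc7a11, and at 110 before that of Nupr1. It was found before the start of Slc7a11, which was lower with the fusion, and of Asns, which was higher. Its part in either difference was not tested. RefSeq windows of 300 bases, 250 before and 50 after the start, were available for 30 of the 35 genes and numbered 33. The C/EBP-ATF element was in 7 of them, or 21.2%, against 3.97% of all 32851 windows; the genes were Asns, Chac1, Herpud1, Nupr1, Slc7a11, Trib3 and Vldlr. The ER stress response element was in 3 (Calr, Hsp90b1 and Hspa5), or 9.09%, against 0.119%, and its second form, ATTGG and CCACG with 1 base between them, was in Herpud1 alone among these, against 0.0365%. The core of the antioxidant response element, TGACNNNGC, was in 10, or 30.3%, against 12.4%. These were the windows of Asns, Calr, Ern1, Herpud1, Phgdh, Psph, Sdf2l1, Sesn2, Slc38a2 and Slc7a1. The cyclic AMP response element TGACGTCA and the unfolded protein response element core TGACGTGG, found in 1.79% and 0.676% of all windows, were in none of the 33. All motifs were searched on both strands, and hits of different motifs may overlap; a match is a string of letters and no measure of binding.

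Among the sensors and transcription factors, Xbp1 alone passed in the full-length comparison. Xbp1, the transcription factor made active by IRE1 splicing, had log2 levels of 12.49 and 12.61 with the empty vector, 12.68 and 12.87 with the full-length fusion, 12.71 and 12.87 with delFG1, and 12.65 and 12.68 with delFG2. All 6 fusion arrays lay above both empty vector arrays. The log2 difference of full-length from empty vector was 0.22, with a 95% interval of 0.11 to 0.33 (limma with the block, n = 2 arrays a group; adjusted p = 0.0233 with the block and 0.458 without). The call was lost without full-length array 1 (adjusted p 0.0995) or 2 (0.239).

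The other sensors did not pass. Ern1, which encodes IRE1, differed by 0.38 and had log2 levels of 9.09 and 8.54 with the empty vector and 9.26 and 9.13 with the full-length fusion (limma adjusted p = 0.0664 with the block). It did pass with the block under quantile normalisation (adjusted p 0.0445), with dim probe sets left out (0.0469) and without empty vector array 1 (0.0140). Atf6 differed by 0.17 and Eif2ak3, which encodes PERK, by -0.08. Atf4 itself differed by 0.14, from 9.50 and 9.23 with the empty vector to 9.65 and 9.36. Its mRNA did not pass (limma adjusted p = 0.410 with the block). Of the known targets of the factor given below, some enzymes passed as higher, others such as Chac1 and Sesn2 did not pass, and Slc7a11 was lower. The activity of ATF4 was not tested.

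Ddit3, the stress-induced factor CHOP, and Trib3, a pseudokinase that restrains ATF4, did not pass either. Ddit3 had log2 levels of 8.75 and 7.63 with the empty vector, 7.98 and 7.39 with the full-length fusion, 8.12 and 7.37 with delFG1 and 7.81 and 7.46 with delFG2. Across numbers, the lower empty vector array lay among the fusion arrays. Within each number, every fusion array was below the empty vector array. The difference of -0.51 with the full-length fusion had an interval with the block of -0.85 to -0.16. It did not pass (limma adjusted p = 0.0867 with the block). Trib3 differed by 0.01.

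Nupr1, a small stress-induced nuclear protein, had log2 levels of 8.70 and 9.03 with the empty vector, 9.28 and 9.32 with the full-length fusion, 9.54 and 9.44 with delFG1, and 9.52 and 9.0 with delFG2. Both full-length and both delFG1 arrays were above the empty vector, and delFG2 array 2 was not. Its difference was 0.43 with the full-length fusion (limma adjusted p = 0.143 with the block) and 0.62 with delFG1, where it passed with the block (0.0371).

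Of the 6 enzymes of serine synthesis and mitochondrial folate metabolism, all had a higher mean with the full-length fusion, with a median log2 difference of 0.23, and 2 passed with the block. Psph, the phosphatase of the last step of serine synthesis, had log2 levels of 7.94 and 8.02 with the empty vector, 8.69 and 8.51 with the full-length fusion, 8.53 and 8.55 with delFG1, and 8.69 and 8.22 with delFG2. The groups with a fusion did not overlap the empty vector. The log2 difference with the full-length fusion was 0.62, with a 95% interval of 0.34 to 0.90, or 1.54-fold (limma adjusted p = 0.0159 with the block, 0.268 without). It was lost without empty vector array 1 (adjusted p 0.0960) or either full-length array (0.184 without 1 and 0.139 without 2).

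Aldh1l2, a mitochondrial folate dehydrogenase, was measured near the dim end of the arrays, whose median log2 levels were 6.71 to 6.76. Its log2 levels were 5.66 and 5.62 with the empty vector, 6.35 and 5.87 with the full-length fusion, 6.00 and 5.92 with delFG1, and 6.18 and 5.92 with delFG2. Arrays with a fusion did not overlap the empty vector, and full-length array 1 was the highest. The log2 difference with the full-length fusion was 0.47, with a 95% interval of 0.22 to 0.72 (limma adjusted p = 0.0314 with the block, 0.379 without). Without full-length array 1 the adjusted p was 0.307; it was also above the threshold without empty vector array 1 (0.273) and without delFG2 array 1 (0.0531) or 2 (0.0540). The remaining enzymes of this branch differed by less and did not pass: Phgdh and Psat1, which make the serine precursors, by 0.16 and 0.10, Shmt2, which moves the serine carbon onto folate, by 0.24, and Mthfd2, the next folate enzyme, by 0.21.

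Asns, asparagine synthetase, and Cth, the transsulfuration enzyme that releases cysteine, also passed with the block. Asns had log2 levels of 11.37 and 11.38 with the empty vector, 11.89 and 11.87 with the full-length fusion, 11.77 and 11.92 with delFG1, and 12.02 and 11.60 with delFG2. Both empty vector arrays lay below all 6 others. The log2 difference with the full-length fusion was 0.50, with a 95% interval of 0.27 to 0.73, or 1.42-fold (limma adjusted p = 0.0160 with the block, 0.262 without). The call was lost without empty vector array 1 (adjusted p 0.0621) or full-length array 1 (0.151) or 2 (0.192).

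Cth had the widest shift of the 35. Both empty vector arrays, delFG1 array 1 and delFG2 array 2 lay below the array medians of 6.71 to 6.76, and its other arrays lay above them. Its log2 levels were 5.96 and 6.34 with the empty vector, 7.11 and 7.38 with the full-length fusion, 6.52 and 7.05 with delFG1, and 7.57 and 6.51 with delFG2. The full-length arrays were clear of the empty vector by a wide margin, whereas delFG1 array 1 and delFG2 array 2 were close to it. The log2 difference was 1.09, with a 95% interval of 0.45 to 1.73, or 2.13-fold (limma adjusted p = 0.0496 with the block, 0.330 without). The call was lost under quantile normalisation (adjusted p 0.0707) and without empty vector array 1 (0.253), full-length array 1 (0.220) or 2 (0.346). Cbs, the enzyme before Cth in transsulfuration, differed by 0.17. Chac1, which degrades glutathione and is a classic ATF4 and CHOP target, differed by -0.06 and did not pass.

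Slc7a11, the light chain of the cystine-glutamate exchanger xCT, fell the most of the 35. Its log2 levels were 11.53 and 11.54 with the empty vector, 10.61 and 10.60 with the full-length fusion, 10.43 and 10.84 with delFG1, and 10.57 and 11.27 with delFG2. Each fusion array was below both empty vector arrays, and delFG2 array 2 was the nearest to them. The log2 difference with the full-length fusion was -0.93, with a 95% interval of -1.24 to -0.61, or 1.90-fold lower (limma adjusted p = 0.00309 with the block, 0.210 without). The call was lost without full-length array 2 (adjusted p 0.0925).

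Slc3a2, the heavy chain that xCT shares with other transporters, had log2 levels of 12.76 and 12.69 with the empty vector, 12.56 and 12.53 with the full-length fusion, 12.51 and 12.52 with delFG1, and 12.57 and 12.56 with delFG2. All 6 fusion arrays were lower, by a small step: the log2 difference was -0.18, with a 95% interval of -0.28 to -0.08 (limma adjusted p = 0.0417 with the block, 0.382 without). The call held without empty vector array 2 alone; it was lost under quantile normalisation (adjusted p 0.0666), without empty vector array 1 (0.118), full-length array 1 (0.229) or 2 (0.223), delFG1 array 1 (0.0983) or 2 (0.0965), or delFG2 array 1 (0.0785) or 2 (0.0777). The other members of the transporter group did not pass. Slc7a5, the leucine transporter that pairs with Slc3a2, differed by 0.04, Slc7a1, for arginine, by 0.15, Slc1a5, for glutamine, by 0.24, and Slc38a2, for small neutral amino acids, by -0.07.

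**Figure D2:**
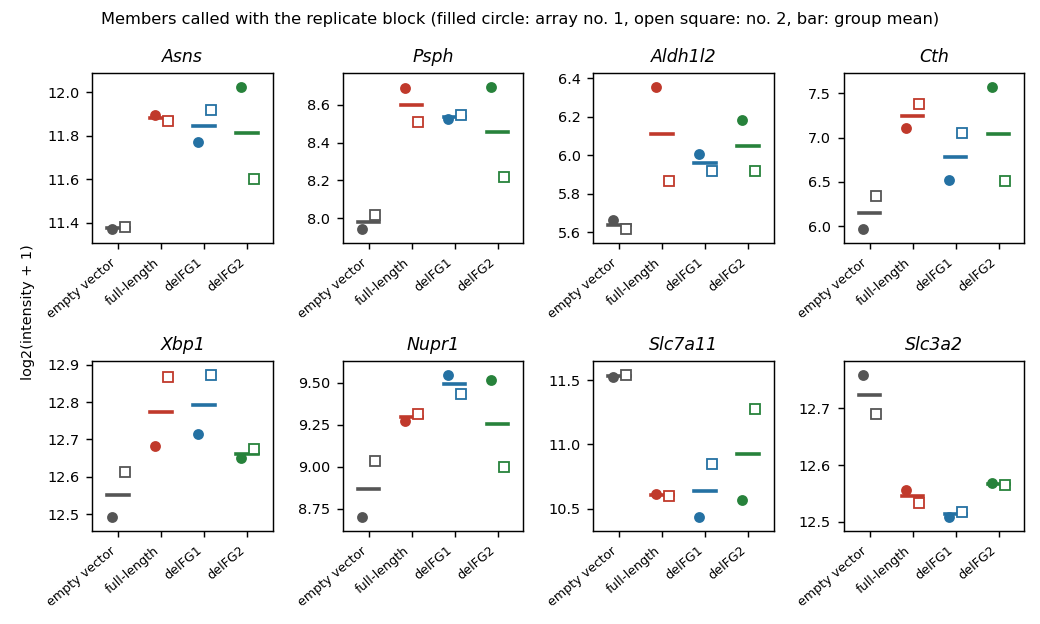
Log2 level of the 8 genes that passed with the replicate block in at least 1 comparison, one panel a gene; filled circles are arrays numbered 1, open squares arrays numbered 2, and bars group means, in the 4 groups. Slc7a11 and Slc3a2 drop on every array with a fusion, and the delFG2 array numbered 2 lies toward the empty vector for Slc7a11, Asns, Cth and Psph.

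Among the remaining ATF4 targets, Ddit4, a brake on the growth kinase complex mTORC1, differed by 0.37 without passing (limma adjusted p = 0.160 with the block), with log2 levels of 8.17 and 8.55 with the empty vector and 8.84 and 8.62 with the full-length fusion. Sesn2, another such brake, differed by 0.04 and Vldlr, a lipoprotein receptor, by 0.01. None of the 8 ER chaperone and degradation genes passed, and their median log2 difference was -0.0017. Hspa5, the chaperone BiP, had log2 levels of 12.60 and 12.55 with the empty vector and 12.64 and 12.64 with the full-length fusion, a difference of 0.06 with a 95% interval of -0.04 to 0.16. Hsp90b1, the ER form of HSP90, and Calr, calreticulin, differed by 0.03 and 0.02, and Pdia4, a disulfide isomerase, by -0.03; its second probe set differed by -0.04. Sdf2l1, a chaperone partner, differed by 0.21, with a 95% interval of 0.08 to 0.34 (limma adjusted p = 0.0712 with the block); it passed with dim probe sets left out (adjusted p 0.0435) and without empty vector array 1 (0.0314). The cochaperone Dnajb9 differed by -0.10, and the degradation factors Herpud1 and Edem1 by -0.02 and -0.10.

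**Figure D3:**
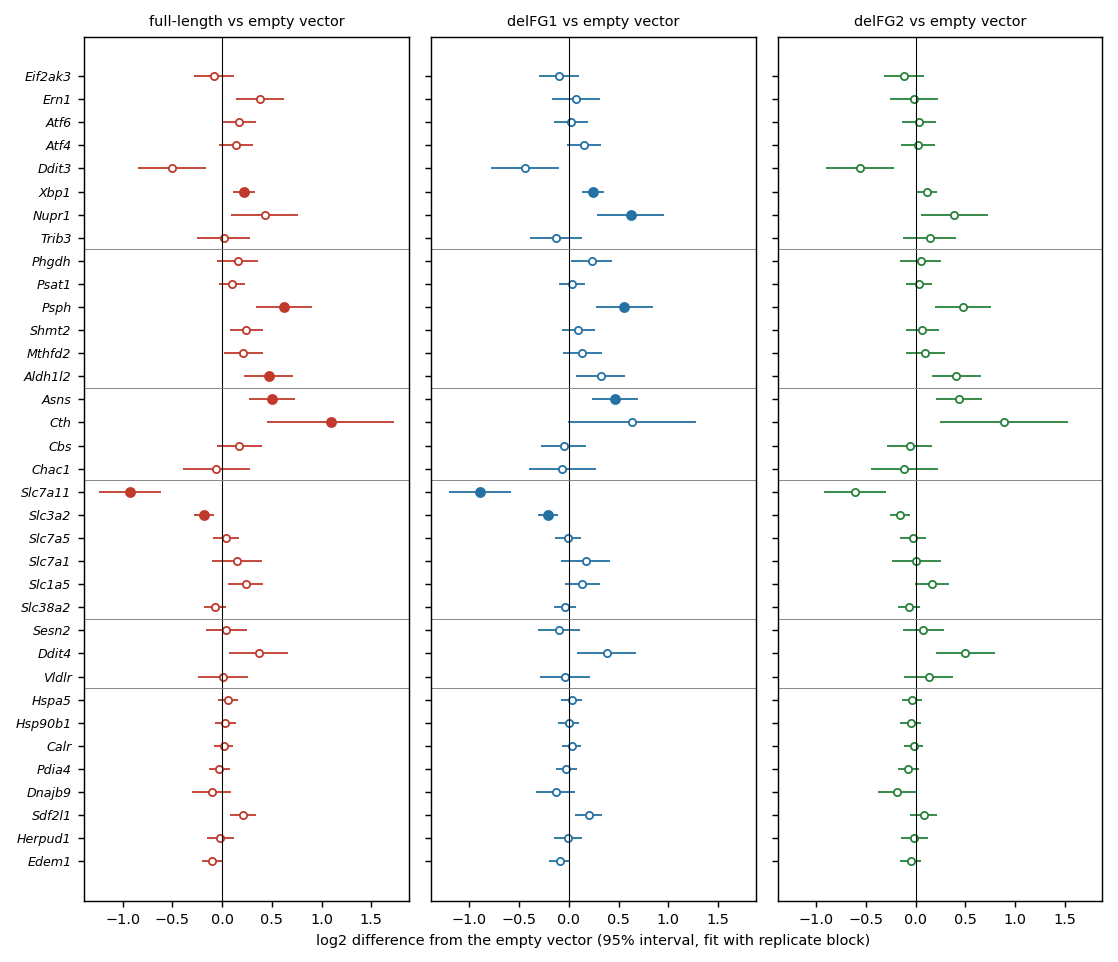
Log2 difference from the empty vector of each of the 35 genes, one panel each for the full-length fusion, delFG1 and delFG2, with 95% intervals of the limma fit with the replicate block; filled points passed an adjusted p of 0.05 in that fit and open points did not. No ER chaperone or degradation gene, at the lower end, is filled in any of the 3 panels, though the interval of Sdf2l1 lies above 0 for the full-length fusion and delFG1, and Slc7a11 lies lowest in each panel.

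Other marker genes moved in the same comparison, in which 4.43% of all probe sets were lower and 2.18% higher with the block. With the block, 7 of 12 neutrophil markers were lower with the full-length fusion, with summed intensities of 37010 to 47490 against 47570 to 59260 with the empty vector. Of 11 monocyte and macrophage markers 6 were lower and 2 higher (16730 to 18800 against 20310 to 24870), and 2 of 7 stem and progenitor markers were higher (34980 to 35270 against 29590 to 32810). Most of that last sum was Mpo, Elane, Ctsg and Prtn3. Cd34 had intensities of 1962 and 1377 with the full-length fusion against 1140 and 718 with the empty vector. Kit had 608 and 489 against 766 and 468, and Flt3 94 and 50 against 51 and 45. Of the mast cell and basophil markers 2 of 7 were lower and 1 higher, and 3 of 5 pan-leukocyte markers were lower. Without the block limma called none of these. At an unadjusted p under 0.05 were 8 of the monocyte, 3 of the neutrophil and 4 of the stem and progenitor markers. So were 3 of the mast cell and basophil and 2 of the pan-leukocyte markers, against 9.54% of all probe sets. Their part in the results of the 35 genes was not tested, and in bulk RNA fewer cells of a type and less RNA per cell cannot be told apart.

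Whether either deletion alters these genes was asked by comparing each mutant directly with the full-length fusion. For delFG1, 0 of 35 passed in either fit, against 0.00918% of all probe sets without the block and 0.078% with it; at an unadjusted p under 0.05 the counts were 0, against 2.07% of all, and 1, against 4.07%. For delFG2, 0 of 35 passed, against 0.0275% and 0.468%, and the unadjusted counts were 0, against 2.76% of all, and 5, against 8.39%. The single gene at that level for delFG1 was Ern1, with a log2 difference of -0.31 (95% interval with the block, -0.55 to -0.07). For delFG2 they were Ern1 at -0.40 (-0.64 to -0.16), Cbs at -0.24, Shmt2 at -0.17 and Xbp1 at -0.11, and Slc7a11 at 0.32 (0.00 to 0.63). With delFG2, 5 of 12 neutrophil markers were higher than with the full-length fusion under the block (summed intensities of 47830 to 56080), 1 monocyte and 1 mast cell marker higher and 1 stem and progenitor marker lower; with delFG1 none of these lists held a call. Their part in the values above was not tested.

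The intervals show what these comparisons could not resolve. Asns differed between delFG1 and the full-length fusion by -0.04 with a 95% interval of -0.27 to 0.19, and between delFG2 and the full-length fusion by -0.07 with an interval of -0.30 to 0.16. For Cth the log2 differences were -0.45 (-1.09 to 0.19) with delFG1 and -0.20 (-0.84 to 0.44) with delFG2. For Slc7a11 the delFG1 difference was 0.03 (-0.28 to 0.34). The delFG1 interval of Cth reached a drop as large as its 1.09 between the full-length fusion and the empty vector, so equal levels were not shown.

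Set against the empty vector, delFG1 gave 0 of 35 on groups alone, against 0.129% of all probe sets, with 8 at an unadjusted p under 0.05, against 9.61% of all, and 6 with the block, against 6.12%. Higher were Xbp1, Nupr1, Psph and Asns, 4 of 35 against 1.94% of all, and lower were Slc7a11 and Slc3a2, 2 of 35 against 4.18% of all. This comparison shares its empty vector arrays with the full-length one. The log2 difference was 0.47 for Asns, 0.56 for Psph, 0.24 for Xbp1, 0.62 for Nupr1, -0.89 for Slc7a11 and -0.21 for Slc3a2 (limma adjusted p with the block, 0.0237, 0.0268, 0.0156, 0.0371, 0.00336 and 0.0202). Slc7a11 kept passing when any 1 of the 8 arrays was left out, with adjusted p up to 0.0283, and was the only 1 of the 6 to pass with no intensity trend in the variance, against 4.84% of all probe sets in that fit. The other calls were each lost without delFG1 array 2 (adjusted p 0.231 for Asns, 0.250 for Psph, 0.183 for Xbp1, 0.117 for Nupr1 and 0.129 for Slc3a2). Without delFG1 array 1 all of these but Asns were lost too (0.0756 for Psph, 0.117 for Xbp1, 0.230 for Nupr1 and 0.342 for Slc3a2). Without empty vector array 1 the adjusted p was 0.0948 for Asns, 0.172 for Psph, 0.251 for Nupr1 and 0.0544 for Slc3a2; without full-length array 1 or 2 it was 0.0676 and 0.0673 for Asns, 0.0677 and 0.0674 for Psph and 0.0892 and 0.0894 for Nupr1. Cth, at 0.64, and Aldh1l2, at 0.32, did not pass. In the same comparison and fit, 6 of 12 neutrophil markers were lower (summed intensities of 35910 to 48370 with delFG1), 7 of 11 monocyte and macrophage markers lower and 2 higher (15650 to 18260), 5 of 7 mast cell and basophil markers lower (11550 to 14640, against 16550 to 18120 with the empty vector) and 3 of 7 stem and progenitor markers higher (34470 to 36060); their part in these results was not tested.

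For delFG2 against the empty vector, 0 of 35 passed on groups alone, against 0.00459% of all probe sets, and 0 with the block, against 0.505%; at an unadjusted p under 0.05, 7 did, against 4.43% of all, and 9 with the block, against 10.8%. The log2 difference was 0.43 for Asns, 0.48 for Psph, 0.89 for Cth and -0.61 for Slc7a11 (limma adjusted p with the block, 0.107, 0.152, 0.258 and 0.09995). The arrays of delFG2 spread widely here: array 1 was at least as far from the empty vector as the full-length mean for Asns, Psph, Cth and Slc7a11, and array 2 was the nearest of the 6 fusion arrays for each of them. Without delFG2 array 2, 3 genes passed with the block (Asns, Cth and Slc7a11), against 0.509% of all probe sets in that fit, and without empty vector array 2, 8 did, against 4.89%. Between the mutants, 0 of 35 passed, against 0% of all probe sets on groups alone and 0.537% with the block; the unadjusted counts were 0, against 3.13% of all, and 2, against 8.07%, with Xbp1 at -0.13 and Trib3 at 0.27 in delFG2 relative to delFG1.

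A second pattern ran across the groups, along the array number. In the fit with the block, 10 of the 35 genes, or 28.6%, differed between arrays numbered 2 and 1, against 11.2% of all probe sets. Lower in arrays numbered 2 were Ern1, Atf6, Atf4, Ddit3, Chac1, Slc7a5, Slc7a1 and Slc1a5, 8 of 35 against 4.75% of all, and higher were Xbp1 and Edem1, 2 of 35 against 6.43% of all. The sources used here do not say what the numbers stand for. In all 4 groups, 13 of the 35 genes were lower on the array numbered 2, or 37.1%, against 13.4% of all probe sets.

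Ddit3 and Chac1 had the largest differences between the numbers. Ddit3 averaged a log2 level of 8.17 on arrays numbered 1 and 7.46 on those numbered 2, a difference of -0.70 ± 0.11 (SE; limma adjusted p = 0.00247, lower in 4 of 4 groups). Its gap was -1.13 with the empty vector, -0.59 with the full-length fusion, -0.75 with delFG1 and -0.34 with delFG2. Chac1 had log2 levels of 9.40 and 8.38 with the empty vector, 9.01 and 8.65 with the full-length fusion, 8.95 and 8.70 with delFG1 and 8.99 and 8.57 with delFG2. Every array numbered 2 was below every array numbered 1, and the difference was -0.51 ± 0.11 (SE; limma adjusted p = 0.0124).

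Trib3, Ddit4 and Sesn2, further targets of ATF4, did not pass between the numbers, at -0.12, -0.02 and -0.0014. Atf4 differed by -0.27, between -0.22 and -0.32 in each of the 4 groups (limma adjusted p = 0.00930). Slc7a1 differed by -0.37, Slc1a5 by -0.29 and Slc7a5 by -0.19 (limma adjusted p = 0.0132, 0.00726 and 0.0167). Of the 8 genes called between a fusion and the empty vector, Xbp1 also passed between the numbers, at 0.12 (limma adjusted p = 0.0493), and the other 7 did not: Aldh1l2 differed by -0.22 and was lower on the array numbered 2 in all 4 groups, Slc7a11 by 0.28, Psph by -0.14, Asns by -0.07, Nupr1 by -0.06, Cth by 0.03 and Slc3a2 by -0.02. In the same arrays 10 of 12 neutrophil markers were higher and 4 of 7 stem and progenitor markers lower on those numbered 2; their part in this pattern was not tested. With both empty vector arrays left out, 11 of the 35 passed, 9 of them among the 10, against 13.2% of all probe sets in that fit. Those not among the 10 were Slc7a11, at 0.37, and Dnajb9, at -0.21 (limma adjusted p = 0.0242 and 0.0239). Without the full-length arrays 3 passed (Ddit3, Slc7a1 and Slc1a5), against 4.84%. Without the delFG1 arrays 5 passed (these and Chac1 and Slc7a5), against 5.77%, and without the delFG2 arrays 4 passed (Atf4, Ddit3, Edem1 and, not among the 10, Cth), against 6.09%.

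**Figure D4:**
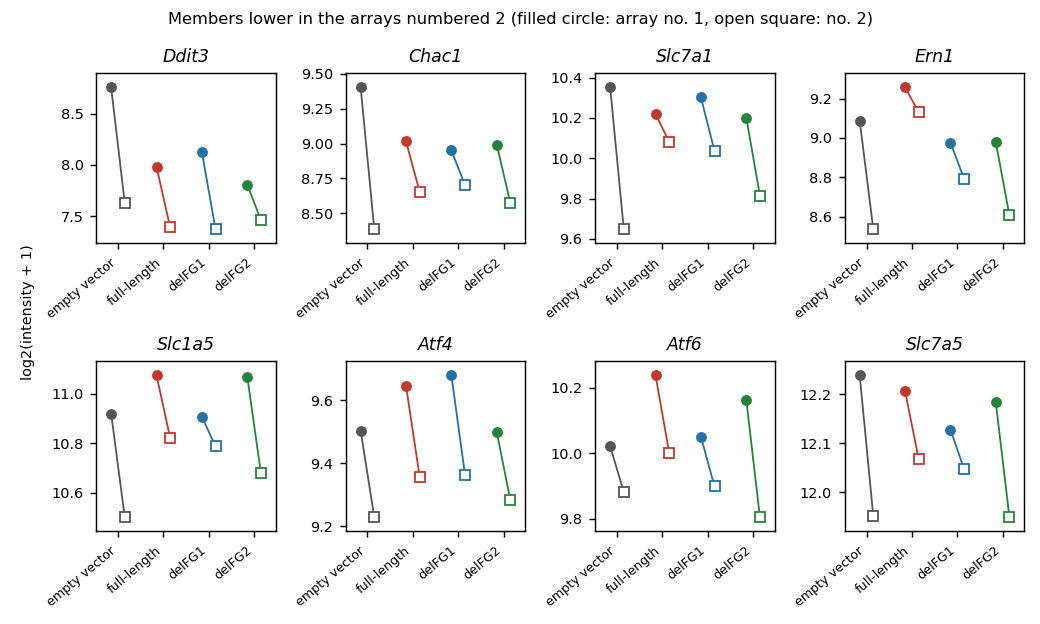
Log2 level of the 8 genes that were lower on arrays numbered 2, one panel a gene; filled circles are arrays numbered 1, open squares arrays numbered 2, and a line joins the 2 arrays of each of the 4 groups. For Ddit3 and Chac1 the line slopes down from number 1 to number 2 in all 4 groups, most steeply in the empty vector.

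Further genes of these pathways, 135 measured of 152 listed in 8 groups, were read the same way. In the full-length against empty vector comparison limma called 0 on groups alone, with 24 at an unadjusted p under 0.05, against 9.54% of all probe sets. With the block 12 were higher, against 2.18% of all, and 17 lower, against 4.43%. Of 27 partners and targets of ATF4, 7 were higher and 0 lower, against 2.18% and 4.43% of all. Their median log2 difference was 0.22, beside the 0.02 over all probe sets. Stc2, a secreted glycoprotein, had log2 levels of 7.34 and 7.23 with the empty vector and 8.22 and 8.06 with the full-length fusion, a difference of 0.86 (limma adjusted p = 0.00473 with the block, 0.156 without). Vegfa, the angiogenic growth factor, differed by 0.59, Bcat1, which transaminates branched-chain amino acids, by 0.43 and Wars, tryptophanyl-tRNA synthetase, by 0.30.

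The genes called among the antioxidant list, and most of those called among the further transporters, were lower. Of 17 glutathione and NRF2 genes, 8 were lower and 0 higher, against 4.43% and 2.18% of all probe sets. Their median log2 difference was -0.19. Hmox1, haem oxygenase, had log2 levels of 10.40 and 10.94 with the empty vector, 9.73 and 10.17 with the full-length fusion, 9.73 and 10.17 with delFG1 and 9.85 and 10.57 with delFG2, and within each number all 3 fusion arrays were below the empty vector. Its difference with the full-length fusion was -0.72 (limma adjusted p = 0.000583 with the block, 0.449 without). Gclm, a subunit of the enzyme that starts glutathione synthesis, differed by -0.37, Srxn1, sulfiredoxin, by -0.48 and Nfe2l2, which encodes NRF2, by -0.33. Slc7a11 is a known target of both ATF4 and NRF2. Its promoter window held the C/EBP-ATF element but not the antioxidant core, and the part of either factor was not tested. Of 17 further amino acid transporters 6 were lower, against 4.43% of all probe sets, and 1 higher, against 2.18%. Lower were, among others, Slc7a2, for cationic amino acids, at -1.05, Slc7a8, another partner of Slc3a2, at -0.48 and Slc6a6, for taurine, at -0.31. Slc1a4, for alanine, serine and cysteine, was higher at 0.72.

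In the other groups, calls with the block stood against 2.18% of all probe sets for higher and 4.43% for lower. Of 26 ER folding and degradation genes, Edem2 and Pdia6 were higher, each at 0.31, and Crebrf, a regulator of CREB3 factors, lower at -0.56. Of 17 mTORC1 and sestrin genes, Sesn1 was higher at 0.64 and the GTPases Rragc and Rragd lower at -0.36 and -0.51. Mthfd1, the cytosolic folate enzyme, was the only call among 13 folate, methionine and glycine genes, at 0.31, and there were 0 calls among 12 eIF2alpha kinase and phosphatase genes and 6 remaining aminoacyl-tRNA synthetases. In each mutant against the full-length fusion, 0 of the 135 passed in either fit (limma; at an unadjusted p under 0.05 without and with the block, 1 and 5 for delFG1, against 2.07% and 4.07% of all probe sets, and 4 and 29 for delFG2, against 2.76% and 8.39%). Against the empty vector, with the block, 6 were higher and 14 lower with delFG1, against 1.94% and 4.18% of all, and with delFG2 2 passed, against 0.505%, both lower, Hmox1 at -0.46 and Slc7a2 at -0.78.

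**Figure D5:**
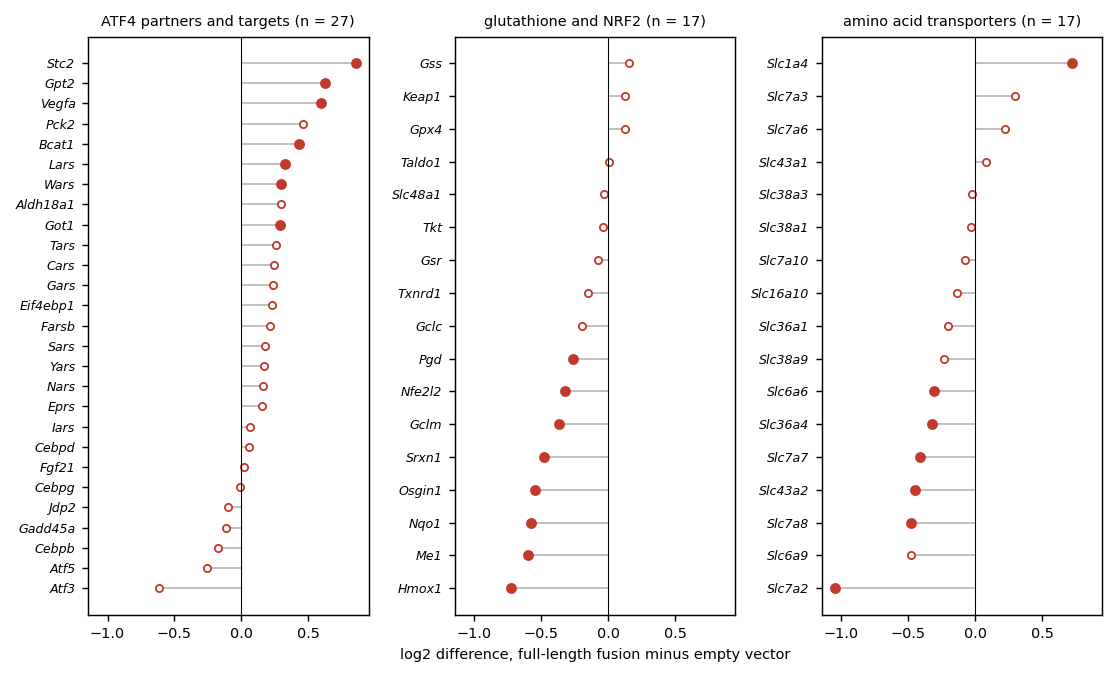
Log2 difference of the full-length fusion from the empty vector for the genes of 3 further lists, one panel a list; filled points passed the 0.05 threshold in the fit with the block and open points did not. All filled points among the ATF4 partners and targets lie above 0, and those among the glutathione and NRF2 genes lie below 0.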

How the data were processed

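Per the labels' protocols, total RNA was column-purified, and DNA made from it was labelled for whole-transcript arrays. The authors deposited 1 table of linear intensity values for 28853 probe sets on each of 8 arrays, made by a background correction, summarisation and normalisation not given in the sources used here. Each value was taken as log2(intensity + 1) with no further normalisation. Probe sets with several symbols (1621) or none (5443) were left out, and dim ones kept, as the table gives no detection calls.

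Groups were compared with limma 3.58.1 in R 4.3.3 (lmFit, eBayes with an intensity trend, all 8 arrays, two-sided), checked first on simulated data. Arrays sharing a number deviated together from their group means, with r from 0.401 to 0.640 in the 6 pairs of groups, so the numbers in the labels were taken to pair the arrays, and the fit with the replicate block (3 residual and 7.78 prior degrees of freedom, against 4 and 4.62 without) stands beside the other. Log2 differences and folds are on the log2(intensity + 1) scale. The number of arrays limits the precision. The genes, the other pathway and marker lists and the tests were chosen with earlier results of these data known. All 35 genes are named. Those that passed in any comparison get their value on every array; from each other list up to 4 that passed are named, smallest p first. Alternatives were another log scale, 2 scalings, a filter on dim probe sets, no variance trend, the 4 arrays compared alone, and each array left out in turn. Promoter windows and coordinates come from RefSeq, assembly GRCm38.p6. Motif hits were searched on both strands of each window.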

Additional observations from a re-analysis of the deposited data

How the results depend on the processing

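In the fits of all 8 arrays, the replicate block decided whether any of the 35 genes passed. It moved the count from 0 to 7 for the full-length fusion and from 0 to 6 for delFG1, each against the empty vector. The block changed no count in the other 4 comparisons. On groups alone, Slc7a11 passed for the full-length fusion in a fit of only the 4 arrays compared. The share of all probe sets that passed in that fit is not given here, so this call has no background to be read against. The alternatives on groups alone that kept all 8 arrays gave 0 of 35. With the block but no intensity trend the counts were 2 and 1, against 4.99% and 4.84% of all probe sets. With the block and 1 array left out, 1 group held only 1 array. Which of the 35 passed then changed with the array left out, and so did the share of all probe sets that passed. This held for each fusion group against the empty vector and for delFG2 against the full-length fusion. Between array numbers 10 genes passed, against 11.2% of all probe sets. Without both full-length, delFG1 or delFG2 arrays 3, 5 and 4 passed, against 4.84%, 5.77% and 6.09%. Of these, 3, 5 and 3 were among the 10. Without both empty vector arrays 11 passed, 9 of them among the 10, against 13.2%. Leaving out arrays removes samples from the fit; otherwise the cause was not tested. The deposited values carry no measure of signal over background. Whether dim genes such as Aldh1l2, or Cth on its lower arrays, lay above background was not tested.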
